A study of Mus musculus with 8 samples.

Results

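The microRNAs (miRNAs) of the miR-199 and miR-214 genes were measured in mouse hearts after myocardial infarction (MI). They are represented by 6 of the 1908 probe sets for mature miRNAs on the array, which are MIMAT0000229_st (miR-199a-5p), MIMAT0000230_st (miR-199a-3p), MIMAT0000672_st (miR-199b-5p), MIMAT0004667_st (miR-199b-3p), MIMAT0000661_st (miR-214-3p) and MIMAT0004664_st (miR-214-5p). These probe sets were taken by identifier, and the group was chosen from the MI minus sham contrast, with its values already known. The differences between MI and sham hearts below are therefore a description of these arrays, with no test, and carry no weight as independent evidence. The probe sets of miR-199a-3p and miR-199b-3p held identical values on all 8 arrays, so the 6 members form 5 distinct profiles.

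The MI group comprised 4 hearts taken 21 days after the left anterior descending coronary artery had been tied off, and the control group 4 hearts taken 21 days after sham surgery. All came from male C57/BL6 mice given as 8 weeks old, and all 8 titles carry the suffix nc, whose meaning the labels do not give. RNA came from heart tissue without separation of cell types, and the labels do not say which region of the heart was taken. In such bulk RNA, a change in the number of cells of a type and a change in the RNA per cell cannot be told apart. The files name no other rows, so the heart label and the proportion of other cell types could not be checked against marker miRNAs.

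A miRNA precursor folds into a hairpin, from which an arm at the 5′ side (5p) and an arm at the 3′ side (3p) are cut. A mature arm guides the silencing complex to messenger RNAs, mainly through its seed, bases 2 to 8 from the 5′ end. In mammals miR-199a and miR-214 are abundant in fibroblasts and other mesenchymal cells. The Mir199a-2 and Mir214 hairpins are cut from Dnm3os, a long non-coding RNA transcribed antisense to Dnm3, which encodes a dynamin. In the mouse, the mesenchymal transcription factor Twist1 is known to drive Dnm3os.

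The mature sequences available for 5 of the 6 members show which of them can share signal and which share a seed. They are from RefSeq (GRCm38.p6), printed 5′ to 3′ with the seed in capitals.
miR-199a-5p: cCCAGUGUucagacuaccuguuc
miR-199a-3p: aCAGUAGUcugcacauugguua
miR-199b-3p: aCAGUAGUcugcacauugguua
miR-214-3p: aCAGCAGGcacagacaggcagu
miR-214-5p: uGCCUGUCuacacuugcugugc
The miR-199a-3p and miR-199b-3p sequences are the same over all 22 bases, and this RNA can come from 3 genes, Mir199a-1, Mir199a-2 and Mir199b. The miR-199a-5p sequence can come from 2 genes, Mir199a-1 and Mir199a-2. Each miR-214 arm has 1 gene. The seeds of miR-199a-3p and miR-214-3p differ by U5C and U8G, with miR-199a-3p given first and positions counted from the 5′ end. Among the mature names in the RefSeq table, miR-761 also has the seed of miR-214-3p.

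The hairpins show how the arms lie in their precursors. The mature arms listed in the RefSeq table are in capitals, and each sequence reads 5′ to 3′ on the strand of its gene.
Mir199a-2 (chr1:162217814-162217923, plus strand): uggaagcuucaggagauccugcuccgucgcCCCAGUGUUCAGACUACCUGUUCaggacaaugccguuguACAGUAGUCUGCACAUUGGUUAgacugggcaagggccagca
Mir214 (chr1:162223368-162223477, plus strand): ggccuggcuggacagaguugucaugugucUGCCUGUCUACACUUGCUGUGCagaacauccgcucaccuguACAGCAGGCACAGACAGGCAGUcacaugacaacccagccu
Mir199a-1 (chr9:21496495-21496564, minus strand): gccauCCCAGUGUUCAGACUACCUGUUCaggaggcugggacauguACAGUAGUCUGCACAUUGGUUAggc
Mir199b (chr2:32318460-32318569, plus strand): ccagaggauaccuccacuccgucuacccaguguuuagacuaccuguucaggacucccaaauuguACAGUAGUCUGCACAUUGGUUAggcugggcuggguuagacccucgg
The Mir199a-2 and Mir214 hairpins both lie within Dnm3os (chr1:162217623-162225550, GRCm38.p6), on its strand and 5444 bases apart. They begin 191 and 5745 bases after its first base. Mir199a-1 lies within Dnm2 on chromosome 9 and Mir199b within Dnm1 on chromosome 2, both on the strand opposite to the dynamin gene. No exon annotation was used, so exonic and intronic positions are not given.

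**Figure D1:**
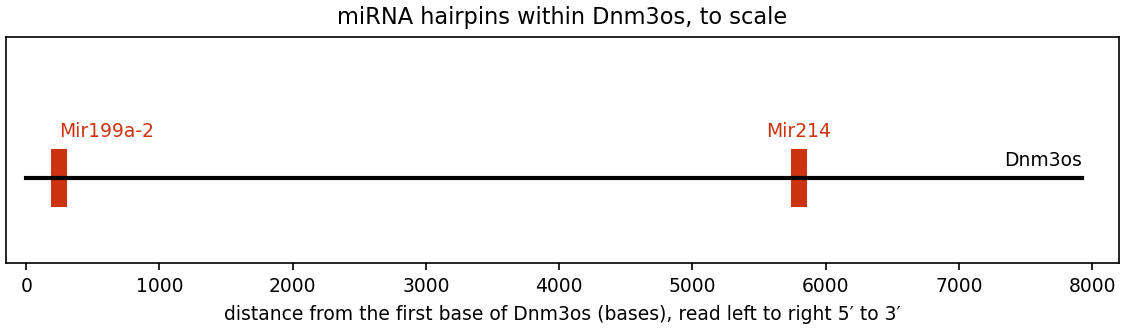
Map of Dnm3os, the host of 2 of the 4 hairpins, with the distance from its first base in bases on the x axis. The black line is the annotated gene and the boxes are the Mir199a-2 and Mir214 hairpins, drawn to scale, with Mir199a-2 starting at 191 and Mir214 at 5745.

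The promoter window of Dnm3os is shown because both miR-214 arms, and in part the miR-199a arms, come from this transcript. It covers 250 bases before to 50 bases after the annotated start (chr1:162217373-162217672, plus strand, RefSeq, GRCm38.p6), with motif matches in capitals.
Dnm3os promoter: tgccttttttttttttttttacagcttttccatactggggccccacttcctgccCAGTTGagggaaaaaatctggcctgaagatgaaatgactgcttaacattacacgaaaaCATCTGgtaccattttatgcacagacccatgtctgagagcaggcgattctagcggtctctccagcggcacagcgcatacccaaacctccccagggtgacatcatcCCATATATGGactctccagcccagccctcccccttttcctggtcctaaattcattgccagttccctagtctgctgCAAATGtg
The motif CANNTG, the E-box form that Twist1 and related factors bind, occurred 3 times, 196 and 138 bases before the start and 42 bases after it. It reads the same on both strands, and 72.3% of 32544 distinct promoter windows of this length hold it. A CArG box, the element known for binding serum response factor, began 33 bases before the start. It also reads the same on both strands, overlapped no E-box and occurred in 1.64% of the windows, and it was looked for after the sequence had been read. These matches describe letters only. The arrays measured no binding and gave no value for Dnm3os here.

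All 5 profiles were higher in MI hearts, and in each of them the lowest MI value exceeded the highest sham value. Over all 1908 mature probe sets, 2.88% showed that separation upwards. The fitted differences ran from 1.21 log2 units for miR-199a-3p and miR-199b-3p to 2.64 for miR-214-5p, with a median of 1.62. The median was -0.0039 over all mature probe sets and -0.11 over the 271 with a mean of 5 or more. In the whole-table limma fit with Benjamini-Hochberg adjustment, 3 of the 5 profiles passed the threshold of 0.05, namely miR-199a-5p, miR-214-3p and miR-214-5p, while 0.524% of all mature probe sets did so upwards. Because the members were taken with this contrast known, nothing is read from either count.

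**Figure D2:**
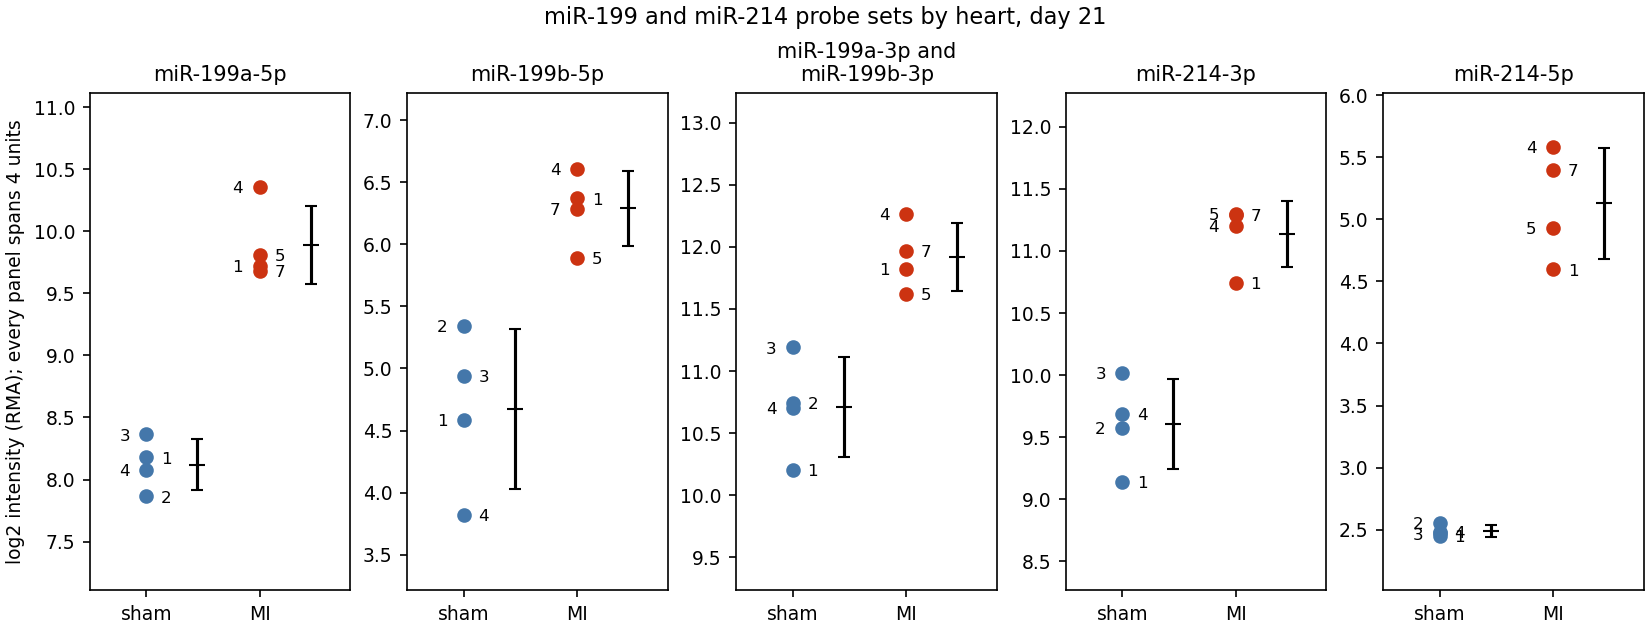
Log2 intensity of each distinct profile in each heart, with sham hearts in blue, MI hearts in red and the number of the heart beside its point. Black bars give the mean and SD (n = 4), and every panel spans 4 log2 units. No sham point reaches an MI point in any panel, and the narrowest gap, 0.43 log2 units, is that of miR-199a-3p and miR-199b-3p.

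miR-199a-5p is known in cultured rat heart muscle cells as a repressor of Hif1a and Sirt1, a pair of proteins of the response to low oxygen. It measured 8.18, 7.86, 8.36 and 8.08 log2 units in sham hearts 1 to 4. In MI hearts 1, 4, 5 and 7 it measured 9.72, 10.35, 9.81 and 9.68. MI heart 4 stood highest, the other MI hearts lay close together, and the lowest MI value exceeded the highest sham value by 1.32. The group means were 8.12 ± 0.208 (SD, n = 4) in sham and 9.89 ± 0.314 (SD, n = 4) in MI hearts. The difference of 1.77 had a standard error of 0.175 and a 95% interval from 1.37 to 2.17, which corresponds to 3.41-fold (2.58 to 4.51).

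miR-199b-5p is known from mouse hearts as a repressor of the kinase Dyrk1a and so as an activator of calcineurin and NFAT signalling. It measured 4.59, 5.34, 4.94 and 3.82 log2 units in sham hearts 1 to 4 and 6.37, 6.61, 5.89 and 6.29 in MI hearts 1, 4, 5 and 7. Sham heart 4 was low and sham heart 2 high, so that this profile had the widest sham spread of the 5, with an SD of 0.646. The means were 4.67 in sham and 6.29 ± 0.300 (SD, n = 4) in MI hearts, and the difference was 1.62 (standard error 0.314, 95% interval 0.89 to 2.34), or 3.06-fold. Its adjusted value did not pass the threshold in the whole-table fit.

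The shared 3p form of miR-199a and miR-199b is known for promoting the proliferation of rodent heart muscle cells when supplied from outside. Its probe sets measured 10.20, 10.74, 11.19 and 10.70 log2 units in sham hearts 1 to 4 and 11.82, 12.27, 11.62 and 11.97 in MI hearts 1, 4, 5 and 7. Sham heart 1 was the lowest of its group, and sham heart 3, the highest, lay 0.43 below the lowest MI heart. The means were 10.71 ± 0.404 (SD, n = 4) and 11.92 ± 0.272 (SD, n = 4). The difference of 1.21 (standard error 0.220, 95% interval 0.70 to 1.72), or 2.31-fold, was the smallest of the 5. It did not pass the threshold in the whole-table fit of all arrays, but passed in 7 of the 18 alternative fits described below. Among those that left a heart out, it passed only without sham heart 3, where the difference was 1.37. The others that passed kept all arrays and changed the filter, the scaling or the model. The array gives no way to divide this signal among the 3 source genes.

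miR-214-3p is known from mouse hearts as a repressor of the sodium-calcium exchanger Ncx1, and mice that lack miR-214 tolerate cardiac ischaemia poorly. It measured 9.14, 9.58, 10.02 and 9.69 log2 units in sham hearts 1 to 4 and 10.74, 11.20, 11.30 and 11.29 in MI hearts 1, 4, 5 and 7. MI heart 1 was the lowest of its group but lay 0.72 above the highest sham heart, heart 3. The means were 9.61 ± 0.365 (SD, n = 4) and 11.13 ± 0.265 (SD, n = 4). They differed by 1.53 (standard error 0.205, 95% interval 1.05 to 1.999), or 2.88-fold. Its place past the threshold was lost when sham heart 2, sham heart 4, MI heart 4, MI heart 5 or MI heart 7 was left out. The differences were then 1.52, 1.56, 1.50, 1.47 and 1.47, so the fitted size moved little.

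miR-214-5p is the other arm of the same hairpin. It measured 2.45, 2.55, 2.47 and 2.48 log2 units in sham hearts 1 to 4, a spread of only 0.046 (SD), and 4.60, 5.58, 4.93 and 5.40 in MI hearts 1, 4, 5 and 7. The sham values lay close above the 2.06 reached by the brightest of the 17 dim spike-in control probe sets, which serve here as a background level. These controls were picked for lying below 3 on all arrays, so the level depends on that limit. Depending on the array, 457 to 546 of the 1908 mature probe sets exceeded it. The miR-214-5p means were 2.49 in sham and 5.13 ± 0.448 (SD, n = 4) in MI hearts. The difference of 2.64 (standard error 0.205, 95% interval 2.17 to 3.11), or 6.23-fold, was the largest of the 5. With a robust prior that followed intensity, the standard error of this difference was 0.402. The part of the background in the small sham spread and in the size of the difference was not tested.

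**Figure D3:**
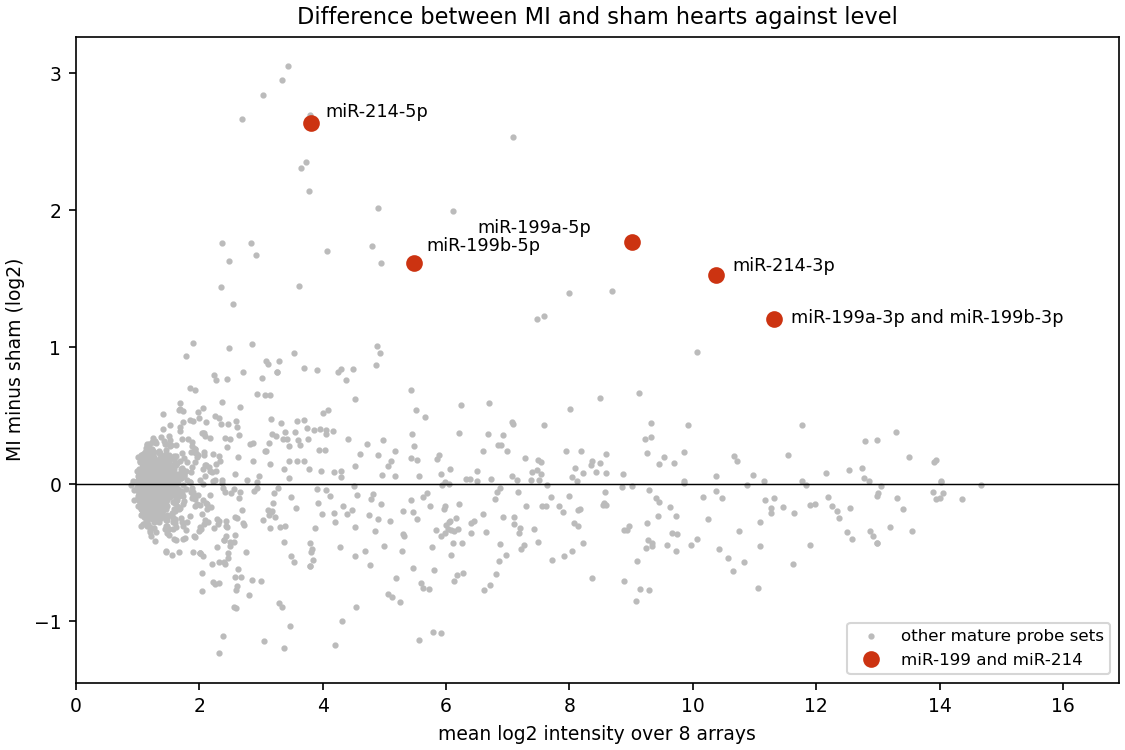
MI minus sham difference in log2 units on the y axis against the mean log2 intensity over the 8 arrays on the x axis, for all 1908 mature probe sets in grey and the 5 distinct miR-199 and miR-214 profiles in red. The red points lie between 1.21 and 2.64 on the y axis, and 4 of the 5 have a mean of 5 or more.

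Among the 269 distinct mature profiles whose mean was at least 5, 10 lay higher in MI hearts by at least 1.21 log2 units, the smallest of the 5 differences. Of those 10, 4 were profiles of miR-199 and miR-214, which the choice of that limit fixes, and 6 were others. A difference of that size downwards was found in 0 of the 269. These counts are by fitted size, with no test.

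The hearts did not keep the same order in every profile. Among MI hearts, heart 4 was highest in 4 of the 5 profiles, miR-214-3p being the exception. Among sham hearts, heart 3 was highest in 3 profiles, namely miR-199a-5p, the shared 3p form and miR-214-3p. The 15 bioB and bioC probe sets, which read bacterial control RNA added at hybridisation, were also highest in sham heart 3, at 11.87 log2 units, against 11.15, 11.11 and 11.61 in sham hearts 1, 2 and 4. Their mean was 11.44 ± 0.367 (SD, n = 4) in sham and 11.49 ± 0.147 (SD, n = 4) in MI hearts, 0.049 higher in MI. Among MI hearts the controls measured 11.35, 11.56, 11.66 and 11.38 in hearts 1, 4, 5 and 7. There the highest controls were in heart 5, which was the lowest MI heart in miR-199b-5p and in the shared 3p form and the highest in miR-214-3p. With these controls as a covariate, added after the data were seen, the median of the 5 differences was 1.65. Under this covariate 3 profiles passed the threshold, and 13 of all 1908 mature probe sets did.

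The 5p and 3p values were then followed within each array. Only for miR-214 do both values belong to the same single gene, since the 3p value used for miR-199a and for miR-199b is a shared signal of 3 genes. Probe sets differ in affinity, so the 5p value minus the 3p value has no meaning as a level, and it is given relative to its sham mean. For miR-214 it lay between -0.43 and 0.43 log2 units in sham hearts and at 0.97, 1.50, 0.75 and 1.22 in MI hearts 1, 4, 5 and 7. The groups did not overlap, and the 5p arm differed between groups by 1.11 log2 units more than the 3p arm (standard error 0.241), or 2.16-fold. In sham hearts, however, miR-214-5p lay close above the background level, with an SD of only 0.046. The sham spread of this difference is therefore almost only that of the 3p value (SD 0.365). The part of the background in the shift was not tested, so no change in the ratio of the arms is read from it. For miR-199a the shift was 0.56 (standard error 0.223). Sham hearts spanned -0.29 to 0.57 and MI hearts 0.30 to 0.78, with sham heart 1 inside the MI range. Without sham heart 1 the miR-199a shift was 0.75. For miR-199b it was 0.41 (standard error 0.340), and 0.12 without sham heart 4. Sham hearts spanned -0.85 to 0.64 and MI hearts 0.31 to 0.58, with sham heart 1 inside the MI range. The last 2 shifts are thus no arm differences within a precursor, and they are not independent of each other.

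**Figure D4:**
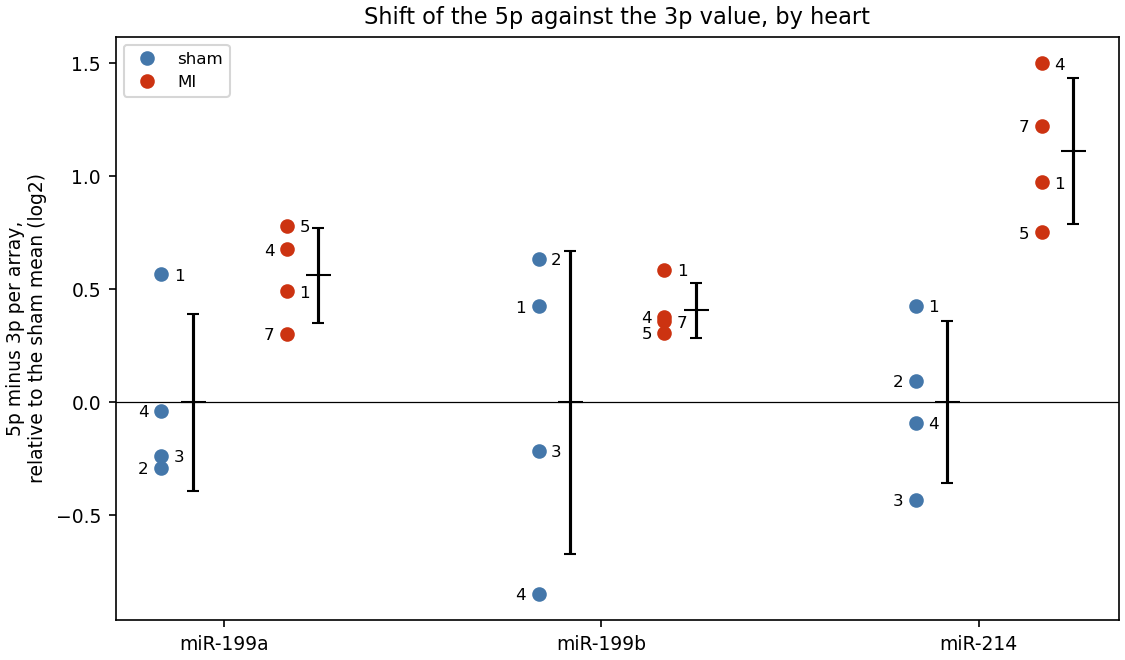
The 5p minus 3p difference of each miRNA in each heart, in log2 units relative to the sham mean, with sham hearts in blue and MI hearts in red, the heart number beside each point, and the mean and SD (n = 4) in black. The 3p value is shared by miR-199a and miR-199b. The miR-214 groups do not overlap, whereas the miR-199a and miR-199b groups do. In sham hearts the miR-214-5p values lie close above the background level.

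The sizes of the differences were also compared between members. The miR-199a-5p difference exceeded that of miR-199b-5p by 0.16 log2 units (standard error 0.383), and that of miR-214-3p, whose transcript also holds 1 of the 2 miR-199a genes, by 0.24 (standard error 0.255). The miR-214-3p difference exceeded that of the shared miR-199 3p form by 0.32 (standard error 0.186). In these 3 pairs the sham and MI hearts overlapped and the offset was less than 2 standard errors, so a difference between these members in the size of the change was not resolved at this number of arrays. How far the probe sets of miR-199a-5p and miR-199b-5p read each other's RNA was not tested.

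The profile most like the miR-199 and miR-214 pattern was sought among the 468 other distinct probe sets in the brightest 25%. The measure was the root mean square distance over the 8 arrays, in log2 units, from the mean deviations of the 4 members with a mean of 5 or more. MIMAT0000139_st was nearest at 0.292, and MIMAT0027970_st followed at 0.306. The next 3 lay at 0.343 to 0.380, while the median over all 468 was 0.985. The members themselves lay at 0.213 to 0.605, and miR-214-5p was the farthest of them. The other 4 form the centre from which they are measured, so their distances cannot be set against those of other probe sets. Even so, miR-199b-5p, at 0.336, lay farther out than MIMAT0000139_st and MIMAT0027970_st. MIMAT0000139_st measured 7.98 ± 0.485 (SD, n = 4) log2 units in sham and 9.39 ± 0.203 (SD, n = 4) in MI hearts, 1.41 higher. MIMAT0027970_st measured 7.30 ± 0.292 (SD, n = 4) and 8.69 ± 0.506 (SD, n = 4), 1.40 higher. Neither passed the threshold in the whole-table limma fit. Of the next 3, the probe set at a distance of 0.3798 did pass. It measured 3.89 ± 0.227 (SD, n = 4) in sham and 5.91 ± 0.356 (SD, n = 4) in MI hearts, 2.02 higher. The other 2 were 1.23 and 1.21 higher and did not pass. All 5 were picked for nearness, on the same 8 arrays, to a profile that is higher in MI hearts. Their own rise in MI hearts follows from that choice, so nothing is read from it or from their calls. The sources used here give no miRNA name for these 5.

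The direction of the 5 profiles was the same under every alternative that was run, but in many of them it was fixed beforehand. Of 18 alternatives, 5 change only the error or the adjustment and leave the differences as they are. Under the other 13, all 65 differences were above 0. Every MI heart exceeded every sham heart in each profile. Leaving out a heart, array weights and the replicate block therefore could not turn a sign, and nothing is read from this count. The smallest was 1.04 (the shared 3p form without sham heart 1) and the largest 2.82 (miR-214-5p without MI heart 1). miR-199a-5p and miR-214-5p passed the threshold in 17 of 18 alternatives each, miR-214-3p in 11, the shared 3p form in 7 and miR-199b-5p in 4. The same arrays and members stand behind all of these counts.

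**Figure D5:**
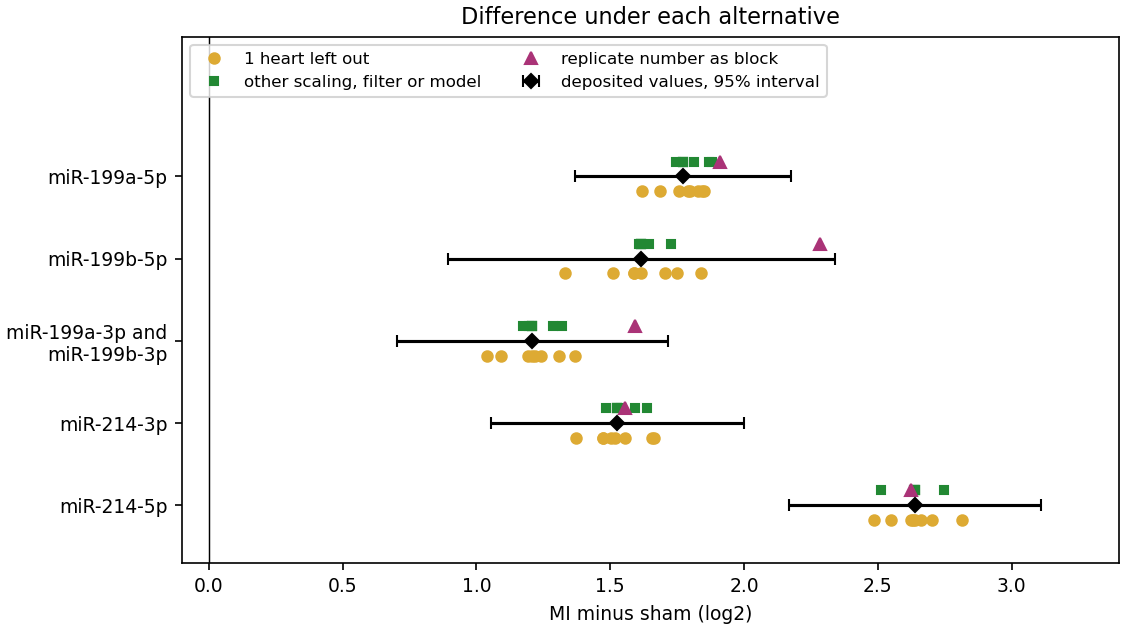
MI minus sham difference in log2 units for each profile under each alternative. Black diamonds with bars give the deposited values with their 95% interval, yellow points leave out 1 heart, green squares use another scaling, filter or model, and purple triangles take the replicate number as a block. The triangles rest on the hearts numbered 1 and 4 only. All points lie above 0, from 1.04 to 2.82.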

How the data were processed

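Total RNA of 8 hearts was poly(A)-tailed, labelled with biotin and hybridised to Affymetrix miRNA 4.0 arrays (sources: the labels' protocols and the series' design text). The deposited values are log2 intensities made by the authors with RMA (background correction, normalization between arrays and summary per probe set), per the submitters' processing notes; no source used here gives its version or detection calls. They ran from 0.617 to 15.9. Scanner files were not used, so background correction was not varied. The number of arrays limits the precision.

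The comparison used limma's lmFit and eBayes (version 3.58.1, R 4.3.3, two-sided) over all 1908 mature probe sets, with group as the only term, Benjamini-Hochberg adjustment and a threshold of 0.05. The fit was tested on simulated data. Intervals are limma's 95% intervals; differences between members use the pooled spread over hearts. If hearts share an unlabelled source, these measure only the spread between samples.

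The members and lists were chosen with earlier results of these data known, as were the dim-control criterion (spike-in probe sets below 3 on all arrays) and the mean of 5. The naming rule takes all members and the 5 probe sets nearest in profile, of which 2 are printed. The lists of fibrosis and cell type miRNAs, and the hairpin probe sets, could not be matched to rows, since no table used here pairs their identifiers with names. Member names are those the selection rule gives. Alternatives were brightness filters, other scalings, an intensity trend with robust prior, array weights, a replicate block, an unmoderated test, identical probe sets counted once, a hybridisation covariate and leaving out each array.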

Additional observations from a re-analysis of the deposited data

Results flagged for a closer look

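In 1 of 22 groups of 4 values examined, the value of a single heart lay apart. In sham heart 1 the miR-199a-5p value minus the miR-214-3p value lay 0.53 log2 units above the sham mean, while the other sham hearts lay between -0.23 and -0.13. The gap to the nearest heart was 0.870 of the group's range and exceeded Dixon's 95% critical value for 4 samples. Chance flags about 1 in 20 groups, or 1.1 of 22. In sham heart 1, miR-214-3p was the lowest of its group at 9.14, and miR-199a-5p was at 8.18. The cause was not tested.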

How the results depend on the processing

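With the deposited values 3 of the 5 profiles passed the threshold. The count was 5 in the brightest 50%, 5 in the brightest 25%, 5 after quantile normalization and 5 after centring on the brightest 25%. Calls over all tested probe sets rose too, from 10 of 1908 with the deposited values. They were 20 of 954, 22 of 477, 16 of 1908 and 25 of 1908 in that order. The member count was 4 when the prior was robust and followed intensity (18 of 1908 called), and 4 with array weights (17 of 1908). It was 2 in the unmoderated test (7 of 1908 called), 3 with identical probe sets counted once (10 of 1892) and 3 with the hybridisation covariate (13 of 1908). The brightness filters test fewer probe sets; otherwise the cause was not tested. The centring moved the median of all mature differences from -0.0039 to 0.11. Leaving out each array gave 2 to 4, with 7 to 17 of 1908 called, and a median difference from 1.51 to 1.75. Standard errors depended on the model too. With the robust prior that followed intensity, they were 0.402 for miR-214-5p, 0.245 for miR-199a-5p and 0.389 for miR-199b-5p. The main fit gave 0.205, 0.175 and 0.314 in that order. For miR-214-3p it was 0.227 against 0.205, and for the shared 3p form 0.218 against 0.220.

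With the replicate block, 0 of 5 profiles and 0 of all 1908 mature probe sets passed in limma. All 5 profiles had an unadjusted p under 0.05 in that fit. The share of all probe sets under that limit was not counted, so nothing is read from it. Only 2 numbers occur in both groups and 1 residual degree of freedom is left. Deviations from the group mean correlated across mature probe sets at -0.29 for the pair of hearts with number 1 and at -0.045 for the pair with number 4, and the numbers were taken as names only. Under the block the median difference was 1.91, with miR-199b-5p at 2.29 and the shared 3p form at 1.59. Leaving out each array gave 5p minus 3p shifts of 0.97 to 1.25 for miR-214, 0.47 to 0.75 for miR-199a and 0.12 to 0.62 for miR-199b. With quantile normalization the miR-214 shift was 0.92. Alternatives for the miRNA lists and hairpin probe sets were not run. Signal near the background limits miR-214-5p in sham hearts.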
